A study of Mus musculus with 8 samples.

Results

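The protein part of the cytosolic ribosome was examined in 8 neuroblastomas of LSL-MYCN;Dbh-iCre mice. Members were all probe sets annotated to 1 gene whose symbol is Rpl, Rps or Rplp with a number and at most 1 letter out of a, x, y and l. This gave 98 probe sets of 45 genes, out of 34958 single-gene probe sets of 18194 genes on the array. Of the genes, 22 encode large subunit proteins, 2 encode proteins of the stalk (Rplp0 and Rplp2) and 21 encode small subunit proteins. The rule uses no measured value, though it was written with earlier results of these data known.

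Tumors 7 and 8 arose in the superior cervical ganglion, which belongs to the sympathetic chain, and tumors 1 to 6 in the adrenal. All 8 were untreated tumors of mice that carry human MYCN behind a CAG promoter and a loxP-flanked stop cassette in the ROSA26 locus, released by the Dbh-iCre transgene in cells that express dopamine beta-hydroxylase. RNA of each tumor was hybridized to 1 Affymetrix mouse expression array, and no source used here states the ages of the mice. The transgene is driven by CAG and not by its own promoter, whether 2 of the tumors shared a mouse is not stated, and normal adrenals were not analysed here. P-values between the sites therefore measure only the spread between these 8 tumors.

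Ribosomes translate mRNA into protein, and their proteins are made in near-equal amounts to be assembled on ribosomal RNA in the nucleolus. Ribosomal protein mRNAs are among the most abundant of a growing cell, and most start with a stretch of pyrimidines after a C at the cap, the 5′ terminal oligopyrimidine (TOP) tract, through which mTOR signaling governs their translation. MYC proteins are known activators of ribosomal protein genes, of nucleolar assembly factors and of RNA polymerase I.

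The sequence around the start of these genes shows what many of them share and what the symbol rule did not use. RefSeq promoters of build GRCm38.p6, with 250 bases before the annotated start in windows of 300 bases, were matched for 39 of the 45 genes. A run of at least 8 uninterrupted C or T bases on the coding strand within 25 bases of the start was found for 22 of these 39 genes. It was present in 46.8% of their 47 promoter entries, against 22.7% of 75 entries of mitochondrial ribosomal protein genes, 13.8% of 58 entries of ribosome biogenesis factors and 19.7% of all 32851 entries. The 30 bases centred on the start are given in 5′ to 3′ direction for members with a long run, for the paralogs Rps27 and Rps27l, and for 3 genes with short runs, namely the steady Rps7 and Rps28 and the undetected Rpl3l. Capitals mark the longest pyrimidine run of each window, and the annotated start is base 16.
Rpl7a, chr2:26910792-26910821, plus strand: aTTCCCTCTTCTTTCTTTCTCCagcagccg
Rpl27a, chr7:109519180-109519209, plus strand: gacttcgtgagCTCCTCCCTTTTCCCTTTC
Rpl35, chr2:39005117-39005146, minus strand: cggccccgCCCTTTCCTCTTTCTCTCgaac
Rpl38, chr11:114668565-114668594, plus strand: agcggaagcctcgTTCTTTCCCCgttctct
Rplp2, chr7:141447636-141447665, plus strand: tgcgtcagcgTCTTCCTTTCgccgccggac
Rps6, chr4:86857353-86857382, minus strand: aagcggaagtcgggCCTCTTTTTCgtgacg
Rps9, chr7:3704026-3704055, plus strand: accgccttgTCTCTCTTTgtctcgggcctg
Rps10, chr17:27635230-27635259, minus strand: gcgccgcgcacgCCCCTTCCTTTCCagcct
Rps18, chr17:33955651-33955680, minus strand: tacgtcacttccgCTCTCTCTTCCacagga
Rps27, chr3:90213634-90213663, minus strand: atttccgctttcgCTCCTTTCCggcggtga
Rps27l, chr9:66946071-66946100, plus strand: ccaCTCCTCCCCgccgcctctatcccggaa
Rps7, chr12:28635939-28635968, minus strand: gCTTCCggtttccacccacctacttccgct
Rps28, chr17:33824548-33824577, minus strand: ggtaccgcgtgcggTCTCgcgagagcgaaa
Rpl3l, chr17:24727811-24727840, plus strand: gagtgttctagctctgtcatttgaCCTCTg
In Rps7 and Rps28, which will be seen to vary least over the tumors, the longest run within these windows was 5 and 4 bases, against 21 in Rpl7a and 19 in Rpl27a. Both were picked for this contrast, and the other steadiest members, Rps29 and Rpl8, had no matched promoter.

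Further motifs were counted on both strands over the full 300 bases. CCGGAAG, the core that ETS factors bind, occurred in 40.4% of the members' entries, against 34.7% of mitochondrial ribosomal protein entries, 31.0% of biogenesis factor entries, 14.0% of the 16386 entries of genes tested and 8.86% of all. Its reverse complement holds a short pyrimidine stretch and can overlap the runs counted above. CACGTG, the E-box bound by MYC and MAX, was found in 10.6% of the members' entries, 19.0% of biogenesis factor entries, 8.98% of entries of genes tested and 7.15% of all. TATAAA was found in 10.6% of the members' entries, against 8.82% of entries of genes tested and 13.6% of all. These matches describe letters in a window and not bound sites.

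Several arrays stood apart from the others before any ribosomal gene was considered. The 9 measured markers of noradrenergic neuroblasts (among them Th, Dbh, Hand2 and Isl1) averaged log2 10.5 in tumor 7, 13.3 in tumor 8 and 13.1 to 13.4 in the adrenal tumors. Ddc was 7.38 in tumor 7 and 14.22 in tumor 8. The 7 hepatocyte markers averaged 12.7 in tumor 6, against 6.15 to 6.64 in the other 7 tumors. The 6 skeletal muscle markers averaged 7.59 in tumor 7 and 6.95 in tumor 8, against 5.76 to 6.11 in the adrenal tumors, with 2 of them detected in no tumor. For Gapdh, the gap between the 3′ and the 5′ probe set, which widens in degraded RNA, reached 5.51 in tumor 1, whereas the remaining arrays had gaps of 0.47 to 1.57. Results that rest on tumors 6 and 7 are therefore also given without them.

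Most ribosomal protein genes were read close to the top of the scale in every tumor. A probe set was called detected above the 95th percentile of 83 sensory receptor probe sets of the same array, a limit of 6.71 to 7.21. By this limit 41 of the 45 genes were detected in all 8 tumors, against 54.6% of all genes, when each gene is read from its probe set with the highest mean. In all 8 tumors, 32 of the 45 genes lay above log2 13, whereas 1.08% of all genes (196) did. The values of these 32 ran from 13.42 to 15.07, and the highest value of any probe set on an array was 15.18 to 15.27. Array signals can flatten near the top of the scale, and levels of different probe sets are not compared. In a bulk tumor, fewer cells of a type and less RNA per cell cannot be told apart.

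**Figure D1:**
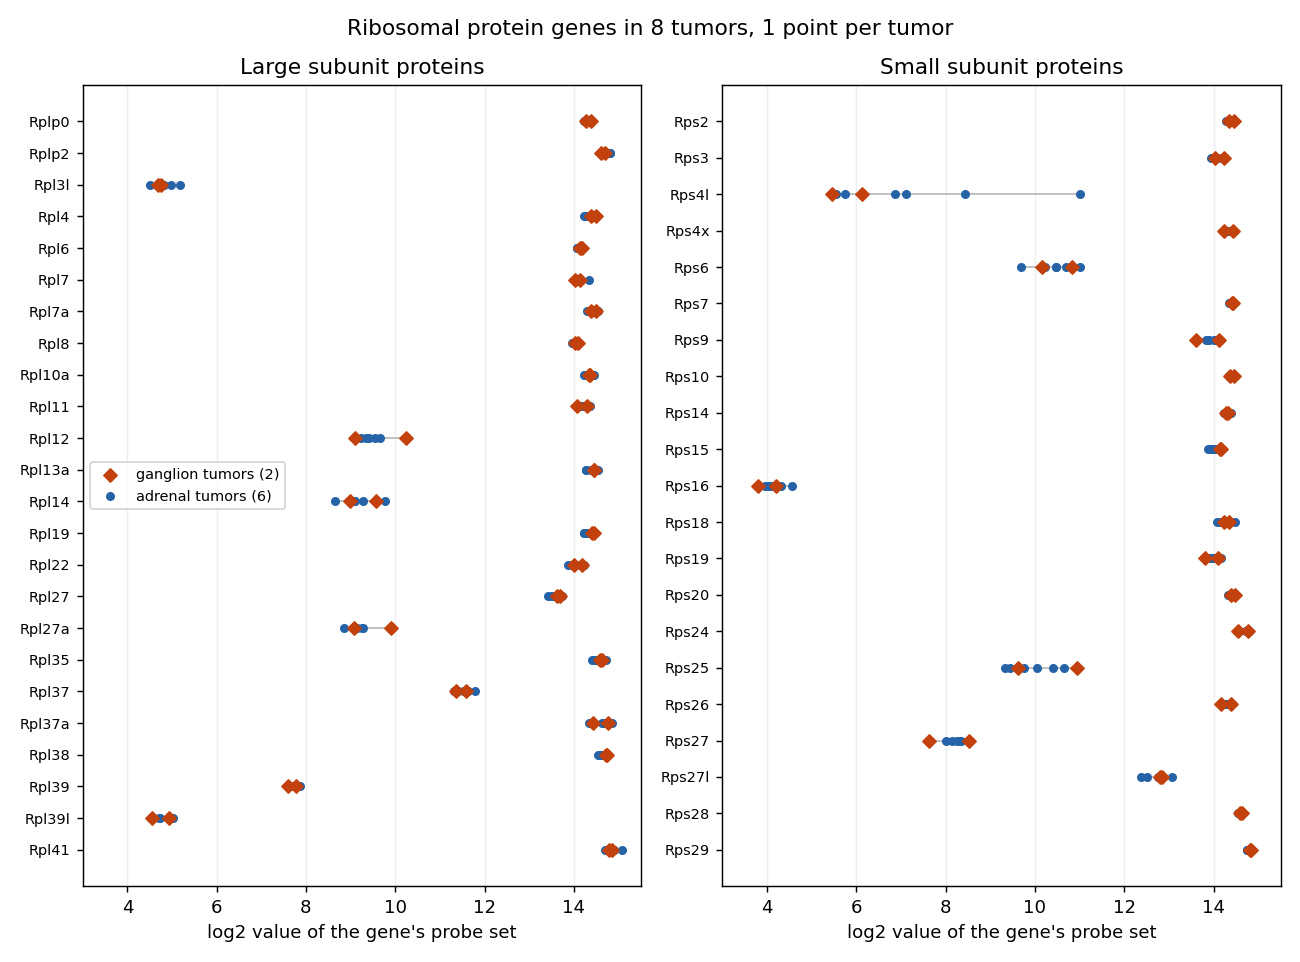
Log2 value of each of the 45 ribosomal protein genes in the 2 ganglion tumors (diamonds) and the 6 adrenal tumors (circles), for large subunit proteins (left) and small subunit proteins (right), with a line over the range. In 32 genes all 8 points lie above 13 and nearly coincide, while Rps4l spreads from 5.45 to 11.02, and Rps16, Rpl3l and Rpl39l lie at background.

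Rplp0 and Rplp2 encode proteins of the stalk, which recruits translation factors to the large subunit. Rplp0 was 14.26 in tumor 7 and 14.38 in tumor 8, against 14.22, 14.30 and 14.36 as the lowest, median and highest of the adrenal tumors. Rplp2 was 14.61 and 14.70 in the ganglion tumors and 14.62, 14.74 and 14.80 in the adrenal tumors. For both genes the sites overlapped.

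Rpl11 belongs to the 5S particle, which can bind and inhibit the p53 ligase MDM2. It was 14.07 and 14.30 in the ganglion tumors, against 14.18, 14.21 and 14.35 in the adrenal tumors, so that the ganglion pair spanned the lower and the upper side of the adrenal range. Its partner Rpl5 was named only by probe sets that also name other genes. Rpl38, needed in mouse embryos for translation of some Hox mRNAs, was 14.74 and 14.71 in the ganglion tumors and 14.53, 14.64 and 14.76 in the adrenal tumors. Rpl4, a protein lining the exit tunnel, was 14.49 and 14.39 in the ganglion tumors and 14.22, 14.34 and 14.43 in the adrenal tumors.

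Among small subunit proteins, Rps3, located where mRNA enters the ribosome, was 14.04 and 14.23 in the ganglion tumors and 13.95, 14.10 and 14.22 in the adrenal tumors. Rps19, whose human ortholog is mutated in Diamond-Blackfan anemia, was 13.81 and 14.10 in the ganglion tumors and 13.81, 13.94 and 14.17 in the adrenal tumors. Both overlapped between the sites. Ribosomal proteins outside the symbol rule read alike, with Rpsa at 14.60 and 14.45 in the ganglion tumors and 14.38 to 14.65 in the adrenal tumors, and Fau at 14.00 and 14.07 in the ganglion tumors and 13.92 to 14.15 in the adrenal tumors. Rps3a1 was 14.35 in tumor 7 and 14.63 in tumor 8, against 14.54 to 14.67 in the adrenal tumors. Rack1 had no single-gene probe set.

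Ribosomal protein genes varied little over the 8 tumors. A filter at log2 5, the level used in the Methods, was applied here as above 5 in at least 2 tumors. It left 42 of the 45 members among 16254 genes tested, and Rps16, Rpl3l and Rpl39l did not pass. The Methods counted samples by another rule and over a larger set. This cut lies below the detection limits, so undetected genes can be among those tested. The median SD over the tumors was 0.0969 for the 42, against 0.164 for 13 translation factors and other TOP mRNAs, 0.264 for 76 mitochondrial ribosomal protein genes, 0.381 for 56 ribosome biogenesis factors and 0.258 for all genes tested. The SD was below 0.1 in 22 of the 42 members (52.4%) and in 3.14% of all genes tested. The median was 0.0969 for the 22 tested members of the large subunit, with Rplp0 and Rplp2 counted in, and 0.0896 for the 20 of the small subunit. Without tumors 6 and 7 the median SD of the members was 0.0923.

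The steadiest members were Rps7, Rps28, Rps29 and Rpl8. Rps7, which in human cells can also bind MDM2, was 14.43 and 14.42 in the ganglion tumors, against 14.35, 14.37 and 14.43 in the adrenal tumors, with an SD of 0.0314 over the 8. Rps28 was 14.64 and 14.59 in the ganglion tumors and 14.56, 14.63 and 14.64 in the adrenal tumors (SD 0.0332). For Rps29 the ganglion tumors read 14.84 and 14.83 and the adrenal tumors 14.74, 14.78 and 14.85 (SD 0.0389). Rpl8 lay at 14.04 and 14.09 in the ganglion tumors and at 13.96, 14.00 and 14.06 in the adrenal tumors (SD 0.0443). In each of these 4 genes the ganglion values reached into the adrenal range.

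Level and spread were related on these arrays. Among genes with a mean above 13, the 32 members had a median SD of 0.0805 and the 261 other genes one of 0.171. The 10 members with a mean of 13 or less had a median SD of 0.332. For means above 9 and up to 11, 5 members had a median SD of 0.374 and 4643 other genes one of 0.292. For means above 7 and up to 9 the medians were 0.295 (3 members) and 0.311 (4331 other genes), and for means above 11 and up to 13 they were 0.184 (2 members) and 0.263 (1808 other genes). The 5169 genes with a mean up to 7, with no member among them, had a median SD of 0.197, so spread did not fall steadily with level. Below 13 the members are few, and no direction is read from them. What part the closeness to the top of the scale had in the low spread of the members was not tested.

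**Figure D2:**
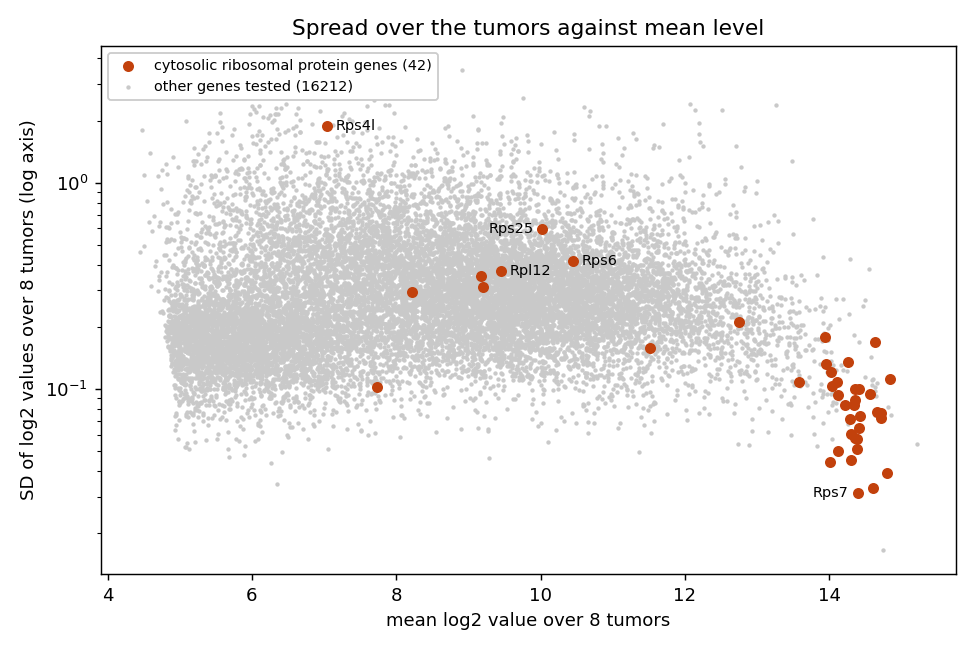
SD over the 8 tumors (log axis) against the mean log2 value, for 42 ribosomal protein genes (large points) and all other genes tested (small points). Of the 42, 32 sit in a cloud at means above 13 with a median SD of 0.0805, and Rps4l (SD 1.89), Rps25 (0.593), Rps6 (0.417) and Rpl12 (0.374) lie among the genes of middle level.

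Some genes with a low reading by their single-gene probe set are also named by probe sets that they share with other genes, whose values are given as a description. Rps16 lay at 4.21 and 3.81 in the ganglion tumors and at 3.96, 4.07 and 4.56 in the adrenal tumors by its only single-gene probe set, below the detection limit throughout. The 2 probe sets that name Rps16 together with other genes read 13.85 to 14.76. Rpl12 was 10.23 and 9.10 in the ganglion tumors and 9.09, 9.38 and 9.65 in the adrenal tumors, and its 2 several-gene probe sets read 13.62 to 14.03. For Rps25, whose protein takes part in internal initiation on viral RNAs, the single-gene probe set gave 10.95 and 9.61 in the ganglion tumors and 9.32, 9.90 and 10.66 in the adrenal tumors. Its several-gene probe set gave 13.41 to 13.91. Rps27 was 7.63 and 8.54 in the ganglion tumors and 8.01, 8.26 and 8.52 in the adrenal tumors, against 13.64 to 14.43 by a several-gene probe set, and Rpl39 was 7.61 and 7.77 in the ganglion tumors and 7.62, 7.75 and 7.87 in the adrenal tumors, against 14.66 to 14.92. Not every shared probe set read high. Values ran from 5.45 to 14.81 among the 9 that name Rps6 and from 8.15 to 14.52 among the 3 that name Rpl37. Several-gene probe sets cannot be assigned to 1 gene and were not counted as members. There were 110 of them, naming 43 ribosomal protein genes, and 99 were detected in all tumors. Of those genes 28 were named only there, among them Rpl3, Rpl5, Rpl10, Rpl32, Rplp1 and Rpl36a.

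The middle-level probe sets with the highest spread after Rps4l were those of Rps25, Rps6, Rpl12, Rpl14 and Rpl27a. Rps6, the substrate of the S6 kinases, was 10.82 and 10.16 in the ganglion tumors and 9.69, 10.48 and 11.00 in the adrenal tumors (SD 0.417). Rpl14 was 9.57 and 8.98 in the ganglion tumors and 8.65, 9.08 and 9.77 in the adrenal tumors (SD 0.352). The 5 several-gene probe sets naming Rpl14 read 12.87 to 14.40. Rpl27a was 9.91 in tumor 7 and 9.07 in tumor 8, against 8.84, 9.14 and 9.27 in the adrenal tumors (SD 0.313), and a several-gene probe set naming it read 14.39 to 14.48. Rps25, Rpl12 and Rpl27a were highest in tumor 7, Rps6 and Rpl14 in tumor 1, the tumor with the wide Gapdh gap. The part of RNA integrity in these values was not tested.

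Rps4l is an autosomal copy of Rps4x on chromosome 6. With each gene read from its probe set with the highest mean, Rps4l was the only gene detected in some tumors and not in others. It read 5.45 in tumor 7 and 6.14 in tumor 8, against 8.43 in tumor 1, 5.74 in tumor 2, 11.02 in tumor 3, 5.55 in tumor 4, 6.86 in tumor 5 and 7.11 in tumor 6. It passed the detection limit in 3 tumors and was below it in both ganglion tumors. The X-linked Rps4x, which encodes the main form of the protein, was 14.24 and 14.44 in the ganglion tumors and 14.31, 14.36 and 14.39 in the adrenal tumors. The SD of Rps4l was 1.89 and that of Rps4x 0.0578.

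The other paralogs measured here were steadier. Rps27l, a copy of Rps27 that p53 can induce, was 12.80 and 12.85 in the ganglion tumors and 12.38, 12.77 and 13.07 in the adrenal tumors. All 3 of its probe sets had the same order of extremes, with tumor 1 highest and tumor 5 lowest. Rpl22l1 was 13.34 and 13.50 in the ganglion tumors and 13.38, 13.52 and 13.79 in the adrenal tumors, beside Rpl22 at 14.18 and 14.00 in the ganglion tumors and 13.86, 13.98 and 14.22 in the adrenal tumors. Rpl7l1 was 10.65 and 10.28 in the ganglion tumors and 10.06, 10.26 and 11.02 in the adrenal tumors. Rpl3l, the form of striated muscle, lay at 4.69 and 4.76 in the ganglion tumors and at 4.51, 4.81 and 5.17 in the adrenal tumors, also in tumor 7 with its raised muscle markers. Rpl39l, known from the male germ line, lay at 4.93 and 4.55 in the ganglion tumors and at 4.52, 4.65 and 5.02 in the adrenal tumors. Both were detected in no tumor.

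Probe sets of 1 gene did not always tell the same story. They are named here by the ending of their identifier, where _x_at and _s_at mark probe sets whose probes can match further transcripts. In 19 genes with at least 2 probe sets detected in all tumors, the deviations of the probe sets from their own medians differed by less than 0.5 in every tumor in 12 genes and by more than 1 in 3 genes (Rps9, Rpl22 and Rpl41). The _s_at probe set of Rps9, was 13.60 and 14.12 in the ganglion tumors and 13.83, 13.95 and 14.14 in the adrenal tumors. The _x_at probe set of Rps9 was 13.31 in tumor 7 and 13.08 in tumor 8, against 13.63 in tumor 1, 13.35 in tumor 2, 13.49 in tumor 3, 8.97 in tumor 4, 13.11 in tumor 5 and 8.45 in tumor 6. It was low in tumors 4 and 6 alone, whereas the _s_at one was 13.90 and 14.00 there. The weaker _s_at probe set of Rpl22 was 11.22 and 11.82 in the ganglion tumors and 10.30 to 12.01 in the adrenal tumors, with the lowest value in tumor 1, where the other Rpl22 probe sets read 14.22 and 12.97. The weaker _x_at probe set of Rpl37a was likewise lowest in tumor 1, at 9.48, against 10.05 to 10.71 in the other tumors. The strongest Rpl37a probe set was also lowest there, at 14.35 against 14.42 to 14.85, while the remaining _x_at one read 14.41, within its range of 14.27 to 14.61. Tumor 1 is the array with the wide Gapdh gap, whose part was not tested. For Rpl13a the strongest probe set was highest in tumor 5, at 14.55, where the weakest was lowest, at 11.91.

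A further 4 weak probe sets of Rps9, Rps10 and Rpl41, chosen after their values were seen, moved together. The _at probe set of Rps10 was 8.35 and 6.86 in the ganglion tumors and 5.69, 6.95 and 7.67 in the adrenal tumors. That of Rps9 was 8.98 and 7.32 in the ganglion tumors and 6.54, 7.83 and 8.34 in the adrenal tumors. For Rpl41, the _at probe set was 9.01 and 7.65 in the ganglion tumors and 6.90, 8.24 and 8.61 in the adrenal tumors, and the weakest _x_at one was 9.22 and 8.38 in the ganglion tumors and 7.61, 8.63 and 9.03 in the adrenal tumors. All 4 were lowest in tumor 2 and highest in tumor 7. The _at probe sets passed the detection limit in 5 (Rps10), 6 (Rps9) and 7 (Rpl41) of the 8 tumors. Their values in tumor 2 lay below the limit of that array (7.21). Over the 8 arrays their pairwise Pearson correlations were 0.938 to 0.986, a description of points that share the same libraries. The main probe sets of the same genes did not follow, with correlations of -0.531 (Rps9), -0.587 (Rps10) and -0.695 (Rpl41) with the mean of the 4. Probe sets of other members, detected in all tumors, ran from -0.927 (Rpl7) to 0.925 (Rps29), so the movement was not limited to these 4.

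**Figure D3:**
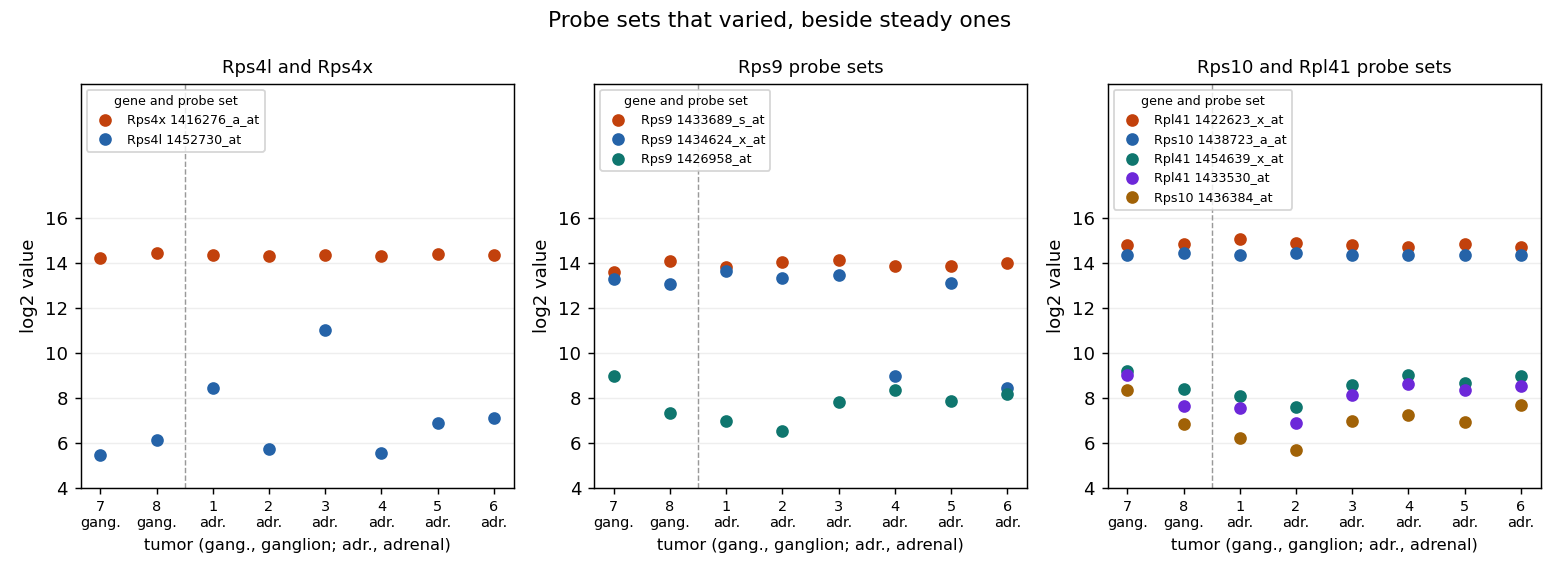
Log2 values by tumor, with ganglion tumors 7 and 8 left of the dashed line and adrenal tumors 1 to 6 right of it, for Rps4l and Rps4x (left), 3 Rps9 probe sets (middle) and Rps10 and Rpl41 probe sets (right). Rps4l reaches 11.02 in tumor 3, the _x_at probe set of Rps9 drops to 8.97 and 8.45 in tumors 4 and 6, and the weak probe sets are highest in tumor 7 while the strong ones stay near 14 to 15.

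The first comparison asked whether ribosomal protein genes differed between the sites. None of the 42 members tested was called between ganglion and adrenal tumors (limma with Benjamini-Hochberg adjustment over all 16254 genes, 0 of 42 also at an unadjusted p below 0.05). The lowest adjusted p was 0.903, for Rpl27a. Over all genes, 3 were called higher in ganglion tumors (0.0185%) and 0 lower (0%), and 761 had an unadjusted p below 0.05. The median difference, ganglion minus adrenal on the log2 scale, was 0.04 for the members and -0.03 for all genes tested, with 29 members higher and 13 lower in ganglion tumors, beside 7276 higher and 8978 lower of all genes tested. The sites did not overlap in 0 of 42 members, against 2.31% of all genes with both ganglion tumors above and 2.1% with both below.

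For the 32 high-reading members the differences ran from -0.11 for Rps9 to 0.15 for Rps15, a protein of the subunit head. The 95% intervals of these differences reached from -0.48 (Rps9) to 0.43 (Rps15). Rps15 itself was 14.16 and 14.14 in the ganglion tumors and 13.89, 13.99 and 14.15 in the adrenal tumors. Wider differences were fitted for middle-level members. Rpl27a, which had the lowest p, differed by 0.37 (SE 0.22, 95% interval -0.13 to 0.87). This value rests on tumor 7, since it was -0.05 without tumor 7, -0.04 without tumors 6 and 7, and 0.79 without tumor 8. Rps4l differed by -1.66 (SE 1.27, interval -4.54 to 1.22, limma adjusted p = 0.912), and by -0.94 without tumor 3. Both pairs of groups overlapped. The ganglion pair holds tumor 7, with its low neuroblast markers. On simulated data with the spread of these arrays the fit recovered 83 of 100 genes changed by 2 and 48 of 100 changed by 1 on the log2 scale, with 6 false calls. The changed genes were drawn from all 16254 tested, and each gene had the same spread at both sites, which real tumors need not have. The members had a lower median SD (0.0969 against 0.258 for all genes tested), so these shares are not rates for the members. Without tumors 6 and 7, the median difference of the members was 0.04. Single tumors moved this median more, to 0.0109 without tumor 4, 0.0187 without tumor 8, 0.0199 without tumor 6 and 0.0559 without tumor 7. Without tumor 8, the ganglion side is tumor 7 alone, which the fit assumes to vary like the adrenal tumors, so that differences describe this 1 tumor. There, the median difference was 0.0187 for the members and -0.0715 for all genes tested.

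The second comparison set the ribosomal protein genes of each tumor beside the factors that build the ribosome. For each gene the deviation of a tumor is its value minus the median over the 8 tumors, on the log2 scale. In tumor 7 the median deviation of the 42 members was 0.0025, with 22 above and 20 below their own median. It was 0.0007 for the 32 members with a mean above 13 and 0.18 for the 10 others, and 0.06 for all 42 when each array was centred on its median over the genes tested. In the same tumor 56 ribosome biogenesis factors had a median deviation of 0.75, with 54 above their median and 46 higher than in any other tumor. Mitochondrial ribosomal protein genes were in between, at 0.15, with 30 of 76 highest in tumor 7. The 13 translation factors and other TOP mRNAs were at 0.06, and all genes tested at -0.04, with 17.3% of them highest there. This is 1 tumor, so no test was made.

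Values of single factors, chosen after they were seen, show the size of the step. Fbl, the methyltransferase of nucleolar RNA guide particles, was 13.21 in tumor 7 and 12.54 in tumor 8, against 12.28, 12.53 and 12.62 in the adrenal tumors. Rrp12, known from yeast as a factor in subunit export, was 9.70 and 7.89 in the ganglion tumors, against 7.69, 7.99 and 8.07 in the adrenal tumors. Among the ribosomal proteins in tumor 7, Rps24 was 14.55, against 14.77 in tumor 8 and 14.72, 14.74 and 14.79 in the adrenal tumors. All 4 strong probe sets of Rps24 were lowest in tumor 7. The weaker _at probe set of Rps24 that was detected in all tumors went the other way. It was highest in tumor 7, at 8.49, against 7.66 to 8.31 in the other tumors. Of the 42 members, 7 were highest and 10 lowest in tumor 7 (23.8% lowest, against 26.4% of all genes tested). For genes with a mean above 13 that are no members, the median deviation in tumor 7 was -0.03. The markers of neuroblasts were low in this tumor and those of muscle raised. The 6 macrophage markers averaged 9.53 in tumor 7 and 10.6 in tumor 8, against 9.77 to 10.6 in the adrenal tumors. The part of these cell types in the values was not tested, nor was that of the closeness of most members to the top of the scale.

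In the other tumors the members' median deviation stayed within -0.04 and 0.03. It was 0.03 in tumor 8, 0.03 in tumor 1, 0.01 in tumor 2, -0.01 in tumor 3, -0.04 in tumor 4, -0.02 in tumor 5 and -0.02 in tumor 6. Mitochondrial ribosomal protein genes moved further, with a median of 0.22 in tumor 1 and -0.26 in tumor 5, where 41 of the 76 were lowest. Biogenesis factors were at 0.11 in tumor 1 and -0.17 in tumor 5. All genes tested were at 0.10 in tumor 1 and -0.02 in tumor 5, with 14.4% of them lowest in tumor 5. Tumor 1 has the wide Gapdh gap, and its part here was not tested. Tumor 6, with its hepatocyte transcripts, had a members' median of -0.02 beside -0.04 for all genes tested. In tumor 1, 12 of the 42 members were highest (28.6%), against 26.3% of all genes tested.

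**Figure D4:**
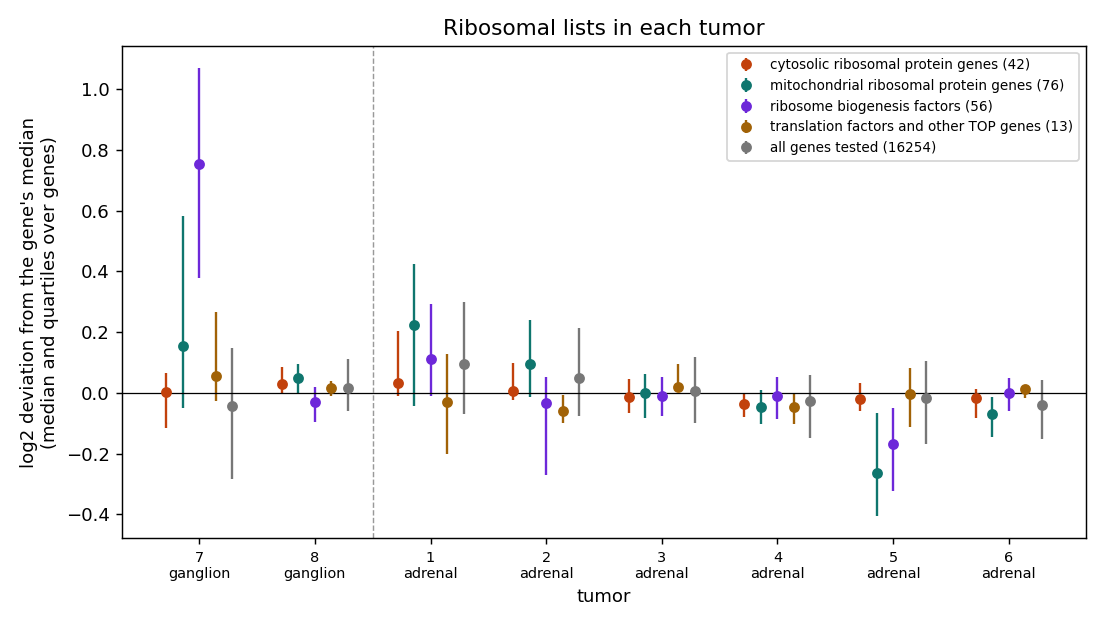
Median (points) and quartiles (lines) over genes of the log2 deviation from each gene's own median, for 4 gene lists and all genes tested, in ganglion tumors 7 and 8 (left of the dashed line) and adrenal tumors 1 to 6. The medians of the cytosolic ribosomal protein genes lie between -0.04 and 0.03 in every tumor, while the median of the ribosome biogenesis factors reaches 0.75 in tumor 7.

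Large subunit genes, stalk included, and small subunit genes were also summarized apart, and their difference was not tested. In tumor 7 the median deviation was 0.01 for 22 large subunit members and -0.0040 for 20 small subunit members, and in tumor 8 it was 0.02 and 0.05. Between the sites, large subunit members differed by a median of 0.05 and small subunit members by 0.02, with 15 of 22 and 14 of 20 higher in ganglion tumors.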

How the data were processed

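The authors deposited log2 expression values per probe set. RMA and Partek 6.6 are named in the submitters' processing notes and gcRMA in the Methods, and which was applied is unsettled. Both include background correction and between-array normalization, so a shift common to all genes of an array cannot be seen. Symbols from the platform annotation were updated through Entrez identifiers. Each gene was read from its single-gene probe set with the highest mean, and genes that exceeded log2 5 in 2 or more tumors entered a fit with limma 3.58.1 in R 4.3.3 (moderated linear fit, no covariate, Benjamini-Hochberg threshold 0.05), checked on simulated data. Lists were summarized in Python 3.11.15 with numpy 2.4.6 and pandas 2.3.3, and plotted with matplotlib 3.10.9. Members and lists were chosen with earlier results of these data known. Genes named are the extreme members per tumor, the 6 highest and 4 lowest in SD, paralogs, members of known role, undetected members and the 6 genes whose probe sets differ most. Alternatives covered normalization, filter, probe set, test, detection limit and tumors left out. The number of arrays limits the precision.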

Additional observations from a re-analysis of the deposited data

Results flagged for a closer look

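In 4 of 52 measures compared over the 8 tumors, 1 tumor lay far from the rest, its gap to the nearest other tumor taking a share of the whole range above Dixon's 95% critical value for 8 values. Chance alone gives such a gap in about 1 in 20 measures, and 3 of the 4 were in tumor 7. Of all genes tested, 17.3% were highest and 26.4% lowest in tumor 7, and the rule was not run over all genes. For Rpl27a the share was 0.596, with 9.91 in tumor 7 against 8.84 to 9.27 in the other tumors. For the strongest probe set of Rps24 it was 0.710, with 14.55 in tumor 7 against 14.72 to 14.79. For Rpl7, a large subunit protein, it was 0.669, with 14.34 in tumor 2 against 14.02 to 14.13. The median deviation of the ribosome biogenesis factors gave 0.696, with 0.75 in tumor 7 against -0.17 to 0.11 in the other tumors.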

How the results depend on the processing

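Of 104 values recomputed under alternative settings, 93 counted as the same. Differences of single genes had to keep their direction and their side of the threshold, and counts to stay within a fixed ratio. Median deviations and the median site difference had to move by less than 0.0244, the spread of the members' median deviations. Since these deviations are of that size, a reversed sign could count as the same, as in tumor 3 (-0.0123 to 0.0005 with the mean of all probe sets of a gene). For the median SD the limit was 0.0124, its error from leaving out 1 tumor at a time. In the alternatives that kept both ganglion tumors, 0 members were called between the sites, beside 2 to 6 of all genes or probe sets tested. Fits that left 1 ganglion tumor are described by their differences only. The number of members detected in all tumors was 41 or 42, and the median SD of the members was 0.0863 to 0.105. With 1 tumor left out at a time, the median site difference of the members ran from 0.0109 (without tumor 4) to 0.0559 (without tumor 7). Centring each array on its median over the genes tested moved the members' median deviation to 0.0562 in tumor 7, -0.0044 in tumor 1, -0.0180 in tumor 2, 0.0244 in tumor 3, -0.0012 in tumor 4, 0.0055 in tumor 5 and -0.0433 in tumor 6. With the mean of all probe sets of a gene, tumor 7 gave 0.0271. The site difference of Rpl27a reversed to -0.0422 without tumors 6 and 7, and ran from -0.0484 without tumor 7 to 0.79 without tumor 8. No paired analysis was possible because the labels give the sites no shared replicate numbers. Genes near the top of the scale and the 28 genes named only by several-gene probe sets limit what these arrays can show.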
